A study of Mus musculus with 18 samples.

Results

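The globin genes described here were Hba-ps3, Hbb-b2, Hba-x, Hbb-bh1 and Hbb-bh0, taken as every probe whose gene symbol in the platform annotation was one of these. They made up 7 of 6868 probes and 5 of the 5974 genes that the annotation named alone. They were followed in MEL cells, a mouse line of transformed erythroid precursors, after addition of hexamethylene bisacetamide (HMBA), a compound that starts their differentiation. Each of 18 two-colour arrays carried total RNA of cells on a given day after HMBA in one channel and RNA of uninduced control cells in the other, and the arrays of day 0 carried control RNA in both. Series A had 1 array on each of days 1, 2, 3, 4, 5 and 6 and on day 0, and series B had 1 array on each of days 2, 3, 4, 5 and 6 and on day 0. A further 5 arrays of series B bore the word SD. On the SD arrays of days 2, 3, 5 and 6 the labels placed the HMBA RNA in the channel that held control RNA elsewhere, and the SD array of day 0 again held control RNA in both. No genotype, strain or HMBA dose was given in the labels, and a transformed line stands in for erythroid precursors only in part.

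Hemoglobin is built from alpha-like and beta-like globin chains, each holding a heme group. Erythroid cells of the yolk sac use embryonic chains, among them zeta-globin from Hba-x and a beta-like chain from Hbb-bh1. Later erythroid cells use adult chains, and the alpha-like and beta-like genes lie in separate clusters on different chromosomes. Hemoglobin production is the textbook sign of MEL cell differentiation. Among the genes followed here, Hbb-b2 encodes an adult beta-globin, Hba-ps3 carries the name of an alpha-like pseudogene, and Hbb-bh0 is a pseudogene of the beta-globin family.

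The label of adult globins rested on a narrow base. Of 14 other globin symbols looked for, among them Hba-a1, Hba-a2, Hbb-b1 and Hbb-y, the annotation gave a probe to Mb alone, the muscle oxygen carrier myoglobin. No probe sequence was available. The probe named Hba-ps3 may also detect similar transcripts of the adult alpha-globin genes, which was not tested. Its value is thus that of the probe and not of a pseudogene transcript as such. The same holds for Hbb-b2 and other adult beta-globin transcripts.

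Upstream sequence was available for Hba-x among the 5 genes. It is shown beside that of Hba-a1, an adult alpha-globin gene of the same cluster without a probe here. Both are the 250 bases before the annotated start, from RefSeq on build GRCm38.p6, written 5′ to 3′ on the plus strand. The Hba-x stretch is chr11:32276350-32276599 and the Hba-a1 stretch is chr11:32283422-32283671. Capitals mark matches on either strand to GATA (the letters GATA factors bind), CACCC (bound by Klf factors), TATAA (bound by the TATA-binding protein) and CCAAT (bound by CCAAT-binding proteins).
Hba-x: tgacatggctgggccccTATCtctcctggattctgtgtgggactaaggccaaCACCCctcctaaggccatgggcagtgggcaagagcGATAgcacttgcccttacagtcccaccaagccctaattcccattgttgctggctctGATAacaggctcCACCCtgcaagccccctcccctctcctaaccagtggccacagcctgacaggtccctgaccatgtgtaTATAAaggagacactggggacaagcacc
Hba-a1: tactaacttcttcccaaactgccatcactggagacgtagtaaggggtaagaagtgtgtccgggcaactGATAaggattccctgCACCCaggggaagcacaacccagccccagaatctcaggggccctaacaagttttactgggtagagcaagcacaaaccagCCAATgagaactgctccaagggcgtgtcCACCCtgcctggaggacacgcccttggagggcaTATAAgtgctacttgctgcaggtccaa
GATA matched at 3 places upstream of Hba-x and at 1 place upstream of Hba-a1. CACCC matched at 2 places in each and TATAA at 1 place in each. CCAAT matched at 1 place upstream of Hba-a1 and at 0 places upstream of Hba-x. Of 32851 mouse promoter stretches of the same length, 53.6 percent held GATA, 52.0 percent CACCC, 22.8 percent TATAA and 33.8 percent CCAAT. These matches are a description of the letters and were set against no value.

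Values below are log2 ratios after each array was centred on its median, so 1 unit is a doubling of the ratio and the median probe of each array lies at 0. Their likely direction is HMBA over control, because the labels put HMBA RNA in channel 1 on the 13 arrays other than SD. Which channel was the numerator, which dyes were used and how values were normalized is not given in the sources used here. If the numerator were control, every sign below would turn. The globins were among the genes from which this direction had been judged, so their sign is no independent evidence of it. The 13 arrays other than SD gave a value for 2008 to 4945 probes each, and their pairwise correlations over probes ran from -0.08 to 0.76. No spot intensity was available, so the signal behind a ratio is unknown, and the number of arrays limits the precision. Nothing in the labels said that arrays came from separate cultures, so a p-value covers no more than array-to-array spread, part or all of which may be technical. Erythroid markers as a list did not move together, with 3 of the 7 that had a late difference higher and 4 lower than on day 0. Higher were Alas2 by 3.60 log2 (SE 1.16), Tfrc by 2.76 (SE 1.17) and Rhag by 0.42. Lower were Epor (-0.08), Ank1 (-0.47), Car2 (-0.64) and Ermap (-1.51). A fit described below also took in the SD arrays, with a turned sign on those that held HMBA RNA. There Rhag was at -0.54 (adjusted p = 0.591 in limma) and Ank1 at 0.41 (adjusted p = 0.885), so both turned sign. Epor stayed lower, at -0.74 (adjusted p = 0.706). The direction of Rhag and Ank1 thus depended on the fit, and Alas2, Tfrc, Car2 and Ermap were not tested in it. Alas2 and Tfrc each had 4 late arrays, all above their 1 day 0 array. Epb42 and Slc4a1 also had late values, but no late difference could be formed for them. Epb42 averaged 1.56 on its 2 late arrays and 0.93 on its 2 day 0 arrays. Slc4a1 had no day 0 value on the 13 arrays. Since ratios give no level, whether these cells expressed such a marker could not be read.

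The 7 globin probes differed widely in how often they gave a value. Hbb-b2 had a value on all 18 arrays, the Hba-ps3 probe on 17 and the better measured Hba-x probe (M006598_01) on 16. Hbb-bh1 had a value on 12 arrays at one probe (M006322_01) and on 1 at the other (M000787_01). The second Hba-x probe (M000162_01) had 5 values and Hbb-bh0 had 4. The 5 embryonic and pseudogene probes of Hba-x, Hbb-bh1 and Hbb-bh0 together gave 38 of 90 possible values, between -2.35 and 1.39. Only 3 of the 7 probes, those of Hba-ps3 and Hbb-b2 and the better measured one of Hba-x, had the 11 values on the 13 arrays needed to enter the tests, against 1221 of all 6868 probes. The others are described by their values.

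**Figure D1:**
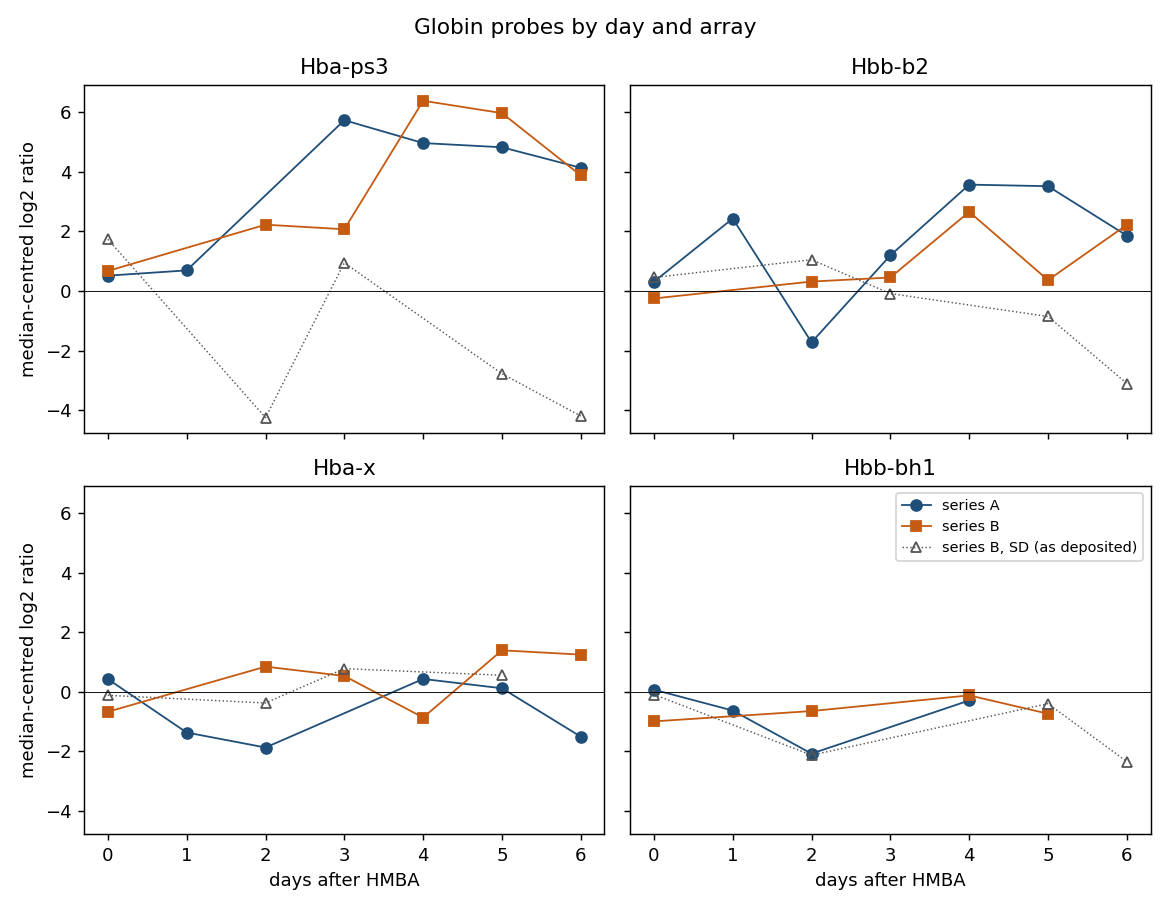
Median-centred log2 ratio against days after HMBA for the best measured probe of Hba-ps3, Hbb-b2, Hba-x and Hbb-bh1, with 1 point per array and lines that join arrays of 1 series across days without a value. In series A and B Hba-ps3 lay between 3.87 and 6.38 on days 4 to 6 and Hbb-b2 between 0.36 and 3.57, while their SD arrays lay below 0 on days 5 and 6 and Hba-x and Hbb-bh1 stayed within 2.35 of 0 on every array.

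The Hba-ps3 probe of the alpha-globin family had the largest late difference of any tested probe. In series A its log2 ratio was 0.51 (day 0), 0.69 (day 1), 5.73 (day 3), 4.96 (day 4), 4.82 (day 5) and 4.13 (day 6), with no value on day 2. In series B it was 0.67 (day 0), 2.22 (day 2), 2.07 (day 3), 6.38 (day 4), 5.97 (day 5) and 3.87 (day 6). Every array of days 4 to 6 lay well above both day 0 arrays, and the series parted most on day 3. In bulk RNA a change in the share of cells that make a transcript and a change in RNA per cell cannot be told apart. This probe had the highest ratio of all 2552 values on the day 3 array of series A and of all 2180 on the day 4 array of series B. On the other 5 arrays from day 4 on that are not SD it ranked 2 or 3, among 2302 to 4873 values.

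The late comparison set the mean of days 4, 5 and 6 against day 0 and asked how globin transcripts stood late in the course. Hba-ps3 averaged 5.02 ± 0.99 on late arrays and 0.59 ± 0.11 on day 0 arrays (SD, n = 6 and n = 2). The late difference was 4.43 log2 (SE 0.89, 95% interval 2.54 to 6.32), a 21.6-fold higher ratio. It ranked 1 of 1211 tested probes both in size and in p-value. Its adjusted p = 0.183 in limma did not pass the threshold of 0.05, and 0 percent of all tested probes passed, with 28 of 1211 at an unadjusted p under 0.05. The 5 SD arrays do not enter these values. Leaving out 1 array at a time kept the size between 4.20 and 4.67. It stayed at 4.43 without either array of day 3, since that day does not enter this difference. Each such fit leaves no more than 1 array on the day concerned, so its p-value is not read here.

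Hbb-b2, the adult beta-globin, was also higher on late arrays, but less evenly so. Its log2 ratio in series A was 0.31 (day 0), 2.43 (day 1), -1.73 (day 2), 1.19 (day 3), 3.57 (day 4), 3.51 (day 5) and 1.86 (day 6). In series B it was -0.25 (day 0), 0.31 (day 2), 0.45 (day 3), 2.65 (day 4), 0.36 (day 5) and 2.22 (day 6). All 6 late arrays lay above both day 0 arrays, the closest being day 5 of series B at 0.36, against 0.31 on the higher of the day 0 arrays. The array of day 1 stood out as well, where Hbb-b2 ranked 7 of 4604 values, before the array of day 2 in the same series placed it below 0. Hbb-b2 averaged 2.36 ± 1.20 on late arrays and 0.03 ± 0.40 on day 0 arrays (SD, n = 6 and n = 2). The late difference of 2.34 log2 (SE 0.85, 95% interval 0.54 to 4.14), 5.05-fold, ranked 8 of 1211 tested probes in size, with an adjusted p = 0.9999 in limma.

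Hba-x, the embryonic alpha-like zeta-globin, showed no such shift at its better measured probe. Its log2 ratio in series A was 0.42 (day 0), -1.37 (day 1), -1.87 (day 2), 0.43 (day 4), 0.11 (day 5) and -1.51 (day 6). In series B it was -0.67 (day 0), 0.84 (day 2), 0.53 (day 3), -0.87 (day 4), 1.39 (day 5) and 1.24 (day 6). Late arrays lay on both sides of the day 0 arrays, with 3 of 6 above both of them. Hba-x averaged 0.13 ± 1.15 on late arrays and -0.13 ± 0.78 on day 0 arrays (SD, n = 6 and n = 2). The late difference was 0.26 log2 (SE 0.92, adjusted p = 0.9999 in limma), and its 95% interval from -1.70 to 2.22 leaves room for a change of either sign. It was below 0 without day 0 of series B (-0.29) or day 6 of series B (-0.20).

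Of the 3 tested globin probes, 2 had every late array above every day 0 array. The share of tested probes with complete late and day 0 values that did so was 3.75 percent (23 of 614). The third, Hba-x, had late arrays above, between and below its day 0 arrays.

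The second Hba-x probe was measured early on and not late. Its ratios in series A were -0.28 (day 0), -1.80 (day 1) and -1.17 (day 2), and on the arrays of series B it was -0.12 (day 2) and, on the SD array of day 0 with control RNA in both channels, 1.07. Where both Hba-x probes had a value on the arrays of days 1 and 2 in series A, both lay below -1. On day 2 of series B they lay on either side of 0. On day 0 of series A they were -0.28 and 0.42.

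Hbb-bh1, the embryonic beta-like globin, stayed at or below the array median nearly throughout. Its better measured probe had ratios of 0.07 (day 0), -0.63 (day 1), -2.08 (day 2) and -0.29 (day 4) in series A. In series B they were -0.996 (day 0), -0.65 (day 2), -0.12 (day 4) and -0.74 (day 5). All 3 late values lay between the 2 day 0 values. The mean of those 3 was -0.39 ± 0.32 (SD, n = 3) late, against -0.46 ± 0.75 (SD, n = 2) on day 0. The other Hbb-bh1 probe had a single value, -1.65 on day 2 of series A, where the better measured one had -2.08.

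Hbb-bh0, the beta-like pseudogene, gave -1.76 (day 1) and -0.57 (day 5) in series A and no value on a day 0 array other than SD. On SD arrays it was -1.77 (day 0) and -1.19 (day 5). Its ratio on day 1 was thus about that of the day 0 SD array, where both channels held control RNA. No late difference could be formed for it.

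On the arrays of days 1 and 2 in series A every measured probe of Hba-x, Hbb-bh1 and Hbb-bh0 lay below the array median. On day 1 all 4 measured lay between -1.80 and -0.63. Of the values on that array, 2.52 to 26.2 percent lay below them. Hbb-bh1 at -0.63 lay between its 2 day 0 values, and Hbb-bh0 at -1.76 was about at its day 0 SD ratio of -1.77. On day 2 both probes of Hba-x and both of Hbb-bh1 lay between -2.08 and -1.17. Of the values on that array, 4.85 to 20.7 percent lay below them. Hbb-b2 was at -1.73 on the same array. The array of day 2 in series B did not repeat this, with 3 embryonic values from -0.65 to 0.84. Each of these rests on 1 array, so day and array cannot be told apart.

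The early comparison, days 1 and 2 against day 0, gave smaller differences with wide errors. Hba-ps3 was at 0.86 log2 (SE 1.09), Hbb-b2 at 0.84 (SE 0.97) and Hba-x at -0.82 (SE 1.05), each with an adjusted p = 0.999 in limma. Of 1060 tested probes 0 percent passed, with 37 at an unadjusted p under 0.05. The late minus early difference, which does not use day 0, was 3.57 log2 for Hba-ps3 (SE 0.89, adjusted p = 0.730), the largest of 1050 tested probes. It was 1.5 for Hbb-b2 (SE 0.77, adjusted p = 0.770) and 1.08 for Hba-x (SE 0.83, adjusted p = 0.836), and again 0 percent passed, with 67 at an unadjusted p under 0.05.

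Single days traced when Hba-ps3 and Hbb-b2 parted from day 0. Hba-ps3 stood above day 0 by 0.10 log2 (day 1), 1.63 (day 2), 3.31 (day 3), 5.08 (day 4), 4.80 (day 5) and 3.41 (day 6). The mean over the arrays of a day was thus highest on days 4 and 5. In series A alone the highest ratio was that of day 3, at 5.73 against 4.96 on day 4. Day 6 minus the mean of days 4 and 5 was -1.53 for Hba-ps3 (SE 0.94, adjusted p = 0.945 in limma). Its 95% interval, -3.53 to 0.47, included 0. Hbb-b2 stood at 2.40 (day 1), -0.73 (day 2), 0.80 (day 3), 3.08 (day 4), 1.91 (day 5) and 2.01 (day 6). Day 6 minus days 4 and 5 was -0.49 (SE 0.90) for it and -0.40 (SE 0.98) for Hba-x, both with an adjusted p = 0.979, and 0 percent of probes passed, with 44 at an unadjusted p under 0.05. In limma 0 percent of probes passed on any single day, with 25 to 56 at an unadjusted p under 0.05, and the smallest adjusted p of a globin there was 0.347, for Hba-ps3 on day 4.

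A line through all days gave Hba-ps3 a slope of 0.78 log2 per day (SE 0.17, 95% interval 0.43 to 1.13), the steepest rise of 1221 tested probes, with an adjusted p = 0.150 in limma. Hbb-b2 had a slope of 0.39 per day (SE 0.16) and Hba-x one of 0.13 (SE 0.14), both with an adjusted p = 0.997. No probe passed, with 41 at an unadjusted p under 0.05. The late difference was also compared between series. Series A minus series B was -0.61 log2 for Hba-ps3 (SE 1.56), 0.67 for Hbb-b2 (SE 1.59) and -2.01 for Hba-x (SE 1.60), each with an adjusted p = 0.9996, and 0 percent of 1072 probes passed, with 1 at an unadjusted p under 0.05.

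The SD arrays gave a second view of the same probes with the channels exchanged. As deposited, Hba-ps3 had 1.73 (day 0), -4.25 (day 2), 0.94 (day 3), -2.78 (day 5) and -4.20 (day 6). Counted from the lowest ratio upward it ranked 25 of 2900 on day 2, 140 of 3129 on day 5 and 39 of 2774 on day 6. The probe at the top of the series A and B arrays was thus near the bottom of these 3, and above 0 on day 3. Hbb-b2 had 0.45 (day 0), 1.05 (day 2), -0.09 (day 3), -0.86 (day 5) and -3.11 (day 6). Hba-x had -0.12 (day 0), -0.38 (day 2), 0.77 (day 3) and 0.55 (day 5). Hbb-bh1 had -0.09 (day 0), -2.13 (day 2), -0.40 (day 5) and -2.35 (day 6). Across all probes the B and SD arrays of a day correlated positively as deposited, at 0.66 (day 0), 0.58 (day 2), 0.42 (day 3), 0.43 (day 5) and 0.52 (day 6). The Hba-ps3 and Hbb-b2 values of days 5 and 6, below 0 on the SD arrays and above 0 on the B arrays, thus ran opposite to the general run of probes.

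The B array minus the SD array of a day, multiplied by 0.5, leaves what turns with the channels. For Hba-ps3 it was -0.53 (day 0), 3.24 (day 2), 0.56 (day 3), 4.37 (day 5) and 4.04 (day 6). That put it 2nd of 2292 probes on day 2, 60th of 1311 on day 3, 2nd of 1874 on day 5 and 3rd of 1609 on day 6. Hbb-b2 had -0.35, -0.37, 0.27, 0.61 and 2.66 on days 0, 2, 3, 5 and 6, and was 14th on day 6. Hba-x had -0.28 (day 0), 0.61 (day 2), -0.12 (day 3) and 0.42 (day 5), all under 1. Hbb-bh1 had -0.45 (day 0), 0.74 (day 2) and -0.17 (day 5).

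**Figure D2:**
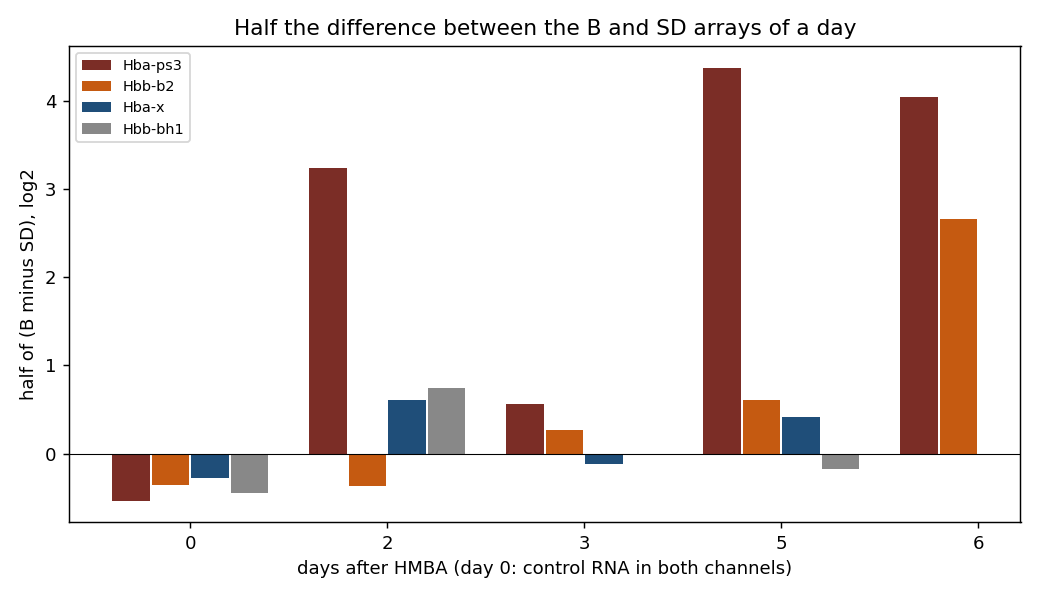
The B array minus the SD array of a day, multiplied by 0.5 and in log2, for 4 globin probes on the 5 days that have both arrays; a missing bar means that 1 of the arrays had no value. Hba-ps3 reached 3.24, 4.37 and 4.04 on days 2, 5 and 6 and Hbb-b2 2.66 on day 6, and the other bars lay between -0.53 and 0.74.

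A fit over all 18 arrays used this exchange directly. It gave each probe a constant bias and took the effect of a day to enter with the opposite sign on the SD arrays of days 2, 3, 5 and 6. That sign is an assumption from the channel labels, since the deposited SD values look turned once already and the sources used here do not say why. With SD arrays averaged in as deposited, Hba-ps3 was at 2.23 and Hbb-b2 at 1.31, neither past 0.05 (adjusted p = 0.998 in limma), and 0 probes passed, with 16 at an unadjusted p under 0.05. With the opposite sign the late difference was 4.30 log2 for Hba-ps3 (SE 0.50, 95% interval 3.26 to 5.34, 19.7-fold), with an adjusted p = 1.92e-05 in limma. For Hbb-b2 it was 2.28 (SE 0.37, 95% interval 1.52 to 3.04, 4.86-fold), with an adjusted p = 0.000936. Both globins rose in this fit and ranked 1 and 4 of 1220 tested probes in size, where 0.738 percent of probes (9 of 1220) passed as higher and 0.574 percent (7 of 1220) as lower. Hba-x was at -0.12 (95% interval -1.10 to 0.86, adjusted p = 0.951), an interval that did not overlap that of Hba-ps3 or of Hbb-b2. Hbb-bh1, too sparse for the test, was at 0.66 (SE 0.46).

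The bias fitted to the Hba-ps3 probe was 0.81 log2, against 0.14 for Hbb-b2 and for Hba-x. By day, Hba-ps3 was at 4.86 on day 4 (adjusted p = 0.0469 in limma), 4.25 on day 5 (adjusted p = 0.00593) and 3.80 on day 6 (adjusted p = 0.0464). It was 3.24 on day 2 (adjusted p = 0.553) and 2.01 on day 3 (adjusted p = 0.293). Among all probes 0.164, 0.328 and 0.164 percent passed as higher on days 4, 5 and 6, and 0.41 percent passed as lower on day 3 and again on day 5, with no globin among those. Hbb-b2 passed on no single day, with 2.97 on day 4 (adjusted p = 0.112) and 2.35 on day 6 (adjusted p = 0.116). Leaving out each of the 18 arrays in turn kept Hba-ps3 between 3.92 and 4.54 and Hbb-b2 between 2.00 and 2.46, both past 0.05 each time. The B and SD arrays of a day may share RNA extracts, which the labels do not say. With each such pair as a random block the values were 4.29 for Hba-ps3 (adjusted p = 7.44e-06) and 2.22 for Hbb-b2 (adjusted p = 0.000935), at an estimated correlation of -0.31 between the arrays of a pair, which is no guard against shared extracts. With each pair averaged to 1 value and the bias kept, Hba-ps3 was at 3.91 (SE 0.58, adjusted p = 0.0159 in limma) and Hbb-b2 at 2.27 (SE 0.46, adjusted p = 0.0635), so that the Hbb-b2 call was lost and 1 of 1201 probes passed. With the SD arrays turned and averaged in without a bias term, Hba-ps3 was at 3.78 (SE 1.04) and Hbb-b2 at 2.19 (SE 0.73), both with an adjusted p = 0.995, and 0 probes passed, with 38 at an unadjusted p under 0.05.

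**Figure D3:**
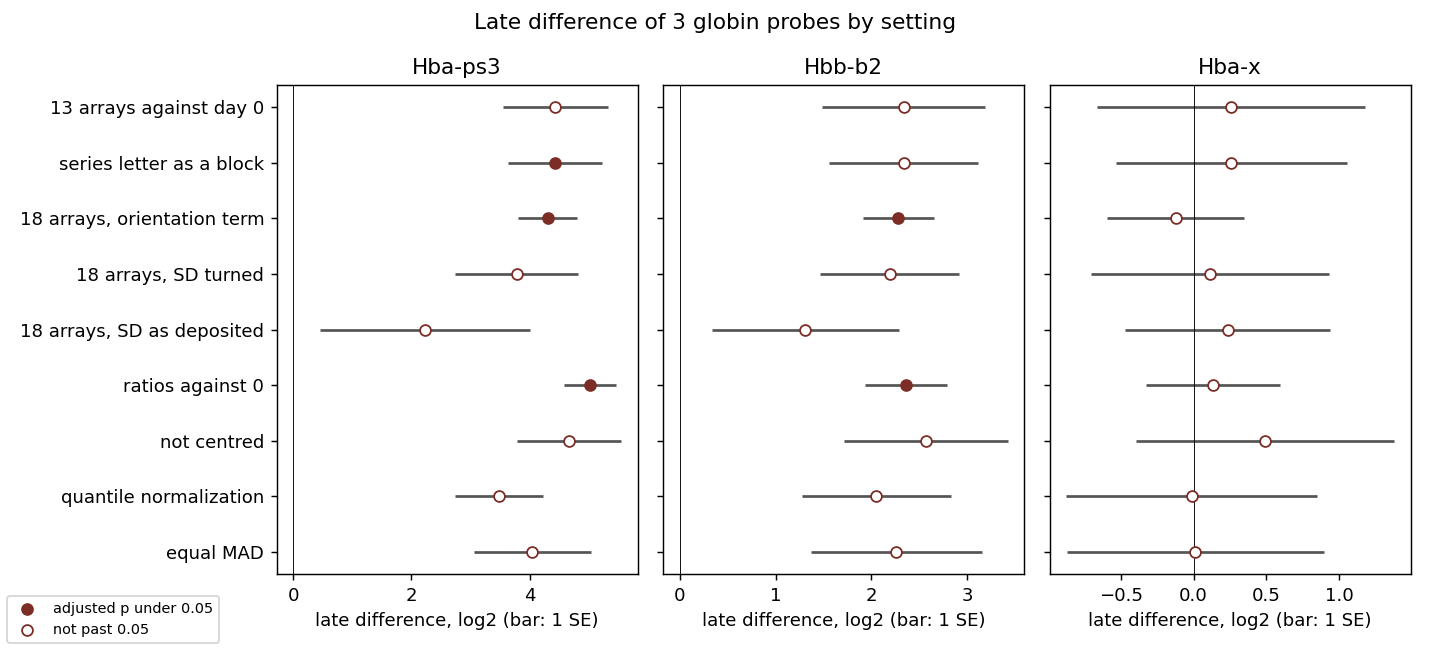
Late difference in log2 with a bar of 1 SE either way for the 3 tested globin probes, in the comparison of 13 arrays with day 0 (top) and under 8 other settings, with filled points past an adjusted p of 0.05 and with its own horizontal scale in each panel. Hba-ps3 lay between 2.23 and 5.02 and Hbb-b2 between 1.31 and 2.57 under these settings, all above 0, and Hba-x lay near 0 on both sides.

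Globin probes were also compared with each other within each array, as the difference of 2 probes' log2 ratios, which removes the centring. Hba-ps3 minus Hba-x was 4.53, 4.71 and 5.64 in series A and 7.25, 4.58 and 2.63 in series B on days 4, 5 and 6, against 0.09 in series A and 1.34 in series B on day 0. All 6 late arrays lay above both day 0 arrays. The mean was 4.89 ± 1.52 late and 0.72 ± 0.89 on day 0 (SD, n = 6 and n = 2), a difference of 4.17. In an exact two-sided permutation test p was 0.0357, the smallest that 28 splits allow, and 0.107 after adjustment over the 3 pairs, which does not pass 0.05.

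Hbb-b2 minus Hba-x was 3.14, 3.40 and 3.37 in series A and 3.52, -1.03 and 0.98 in series B on days 4, 5 and 6, against -0.12 in series A and 0.42 in series B on day 0. Day 5 of series B was the late array that fell below both day 0 arrays. The mean was 2.23 ± 1.86 late and 0.15 ± 0.38 on day 0 (SD, n = 6 and n = 2), a difference of 2.08 (exact permutation p = 0.321, also after adjustment). Hba-ps3 and Hbb-b2 were compared in the same way. Hba-ps3 minus Hbb-b2 was 2.66 ± 1.70 late and 0.56 ± 0.51 on day 0 (SD, n = 6 and n = 2), with 6 of 6 late arrays above both day 0 arrays (exact permutation p = 0.107, adjusted p = 0.161). The late difference of Hba-ps3 minus Hba-x was 4.87 within series A and 3.47 within series B. That of Hbb-b2 minus Hba-x was 3.42 within series A and 0.74 within series B, and that of Hba-ps3 minus Hbb-b2 was 1.45 within series A and 2.74 within series B.

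**Figure D4:**
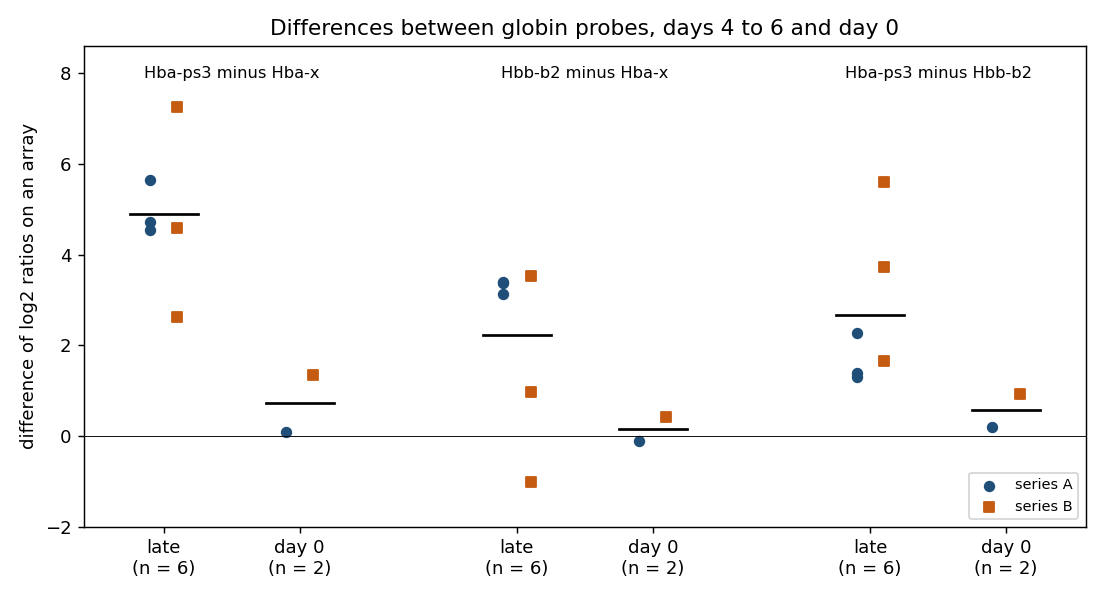
Difference of the log2 ratios of 2 globin probes on the same array, 1 point per array with series A as circles and series B as squares, and the mean as a line, for the 6 late arrays (days 4 to 6) and the 2 day 0 arrays. Hba-ps3 minus Hba-x has every late point above the day 0 points, and Hbb-b2 minus Hba-x has 1 late point, day 5 of series B at -1.03, below them.

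The probes most like each globin over the arrays were found by Pearson's correlation across at least 11 of the 13 arrays, which share the control RNA and the day course. For Hba-ps3 they were Rnf11 (r = 0.83), P4hb (r = 0.82), S1pr2 (r = 0.82), Tas2r108 (r = 0.82) and Vcan (r = 0.75), over 11 arrays each and among 865 candidates with a median r of 0.05. For Hbb-b2 they were Oaz2 (r = 0.83), Noct (r = 0.80), Rnf11 (r = 0.79), Tulp3 (r = 0.79) and Cstb (r = 0.76), among 1223 candidates with a median r of 0.13. For Hba-x they were Oaz3 (r = 0.83), Fmnl1 (r = 0.81), Chst7 (r = 0.80), Zfp28 (r = 0.76) and Btg2 (r = 0.76), among 844 with a median r of 0.09. No other globin was among the 5 most alike of any of the 3. Hba-ps3 and Hbb-b2 correlated at 0.47 over 12 arrays, Hba-ps3 and Hba-x at 0.18 over 11, and Hbb-b2 and Hba-x at 0.13 over 12.

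Regulators of globin genes and of their switching from embryonic to adult forms were taken as a list of 26 genes, of which 22 had a probe and 15 a late difference. Their median was -0.01, with 7 higher and 8 lower, against a median of 0.16 over all 2615 probes with such a difference, 1554 of them higher and 1061 lower. Only 6 of them entered the test, with 4 higher, 2 lower and 0 passing, beside 0 percent of all probes. Among activators of globin genes, late differences were 1.27 log2 for Nfe2 (SE 1.55), 1.08 for Klf1 (SE 0.94), 0.67 for Gata1 (SE 0.86) and 0.60 for Tal1 (SE 0.82). Their partners had 0.86 for Mafk, 0.50 for Cbfa2t3, 0.43 for Zfpm1 and -0.46 for Ldb1. In the fit over 18 arrays Gata1 was at -0.08 and Zfpm1 at -0.47, so both turned sign, with Tal1 at 1.25, Cbfa2t3 at 0.48 and Ldb1 at -1.16, and none of these 5 passed 0.05.

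Genes linked to silencing or to the progenitor state had late differences of -1.14 log2 for Bcl11a (SE 0.89), a repressor of embryonic globins, and -1.57 for Hdac2 (SE 0.99), a histone deacetylase. Bach1, a heme-sensitive repressor at globin genes, was at -0.52 (SE 1.08) and Mbd2, a reader of methylated DNA, at -0.01 (SE 0.86). Myb, a factor of dividing erythroid progenitors, was at -2.49 and below the day 0 mean on 6 of 6 late arrays (SE 0.88, adjusted p = 0.9999 in limma). In the fit over 18 arrays Myb was at -1.92 (adjusted p = 0.00937), past 0.05 there as Hba-ps3 and Hbb-b2 were. With each B and SD pair averaged to 1 value and the bias kept, Myb did not pass. The 1 of 1201 probes that did was that of Hba-ps3. The heme synthesis list had 6 late differences on 7 genes with a probe, 3 higher and 3 lower, with a median of 0.36. Higher were Alas2 (3.60, SE 1.16), Alad (1.49, SE 1.135) and Fech (1.12, SE 1.55). Lower were Ppox (-1.52, SE 1.27), Alas1 (-0.76, SE 1.14) and Cpox (-0.41, SE 0.75). Alas2, Fech, Ppox and Alas1 had 1 day 0 array each. Of these genes only Cpox entered the test, and it did not pass 0.05.

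Some markers of other cell types differed on the same late arrays. Of 4 megakaryocyte genes with a probe 2 had a late difference, 0.10 and 2.49 log2, the second being Itga2b (SE 0.77, adjusted p = 0.9999 in limma). Of 7 mast cell genes 3 had one, with Kit at 0.66 (SE 1.18), Mcpt2 at -3.14 (SE 1.19) and Ndst2 at -3.19 (SE 0.99, adjusted p = 0.9999 in limma). Mcpt2 and Ndst2 lay below the day 0 mean on every late array that measured them. For Mcpt2 and Kit that mean was 1 day 0 array, and neither entered the test. Of 5 myeloid genes with a probe 0 had a late difference, and the 2 lymphoid probes that had one, both of Ptprc, were at -0.68 and -0.16. The lymphoid genes Cd79a, Rag1 and Cd3e had values on a few arrays but no late difference. In the fit over 18 arrays Itga2b rose by 1.47 log2 (adjusted p = 0.0314 in limma) and Ndst2 was at -2.87 (adjusted p = 0.000936). Neither call held with each B and SD pair averaged to 1 value and the bias kept. There 1 of 1201 probes passed, that of Hba-ps3. The part of these markers in the globin values was not tested.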

How the data were processed

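Total RNA of MEL cells on days 0 to 6 after HMBA and control RNA shared each of 18 two-colour arrays, per the labels. The authors deposited log2 ratios: on the 13 arrays other than SD low values are the log2 of a ratio with 3 decimals, and on SD arrays high values are minus such a log2 (tolerance 0.02 of the third decimal). Earlier background correction and normalization are not given in the sources used here. Each array was centred on its median. Probes measured on 11 or more of those 13 arrays, with 1 day 0 array among them, were fitted as 7 day means with limma 3.58.1 in R 4.3.3, adjusted by Benjamini-Hochberg over all tested probes at 0.05. Probes with fewer values come from the same fit without that filter. The steps were tested on simulated data. Comparisons with day 0 share its arrays. Day 1 has 1 array and is assumed to vary like the other days.

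All 7 globin probes were named whatever their values, the 5 most alike probes by correlation, and regulators with at least 9 of 13 values. Genes named from the heme synthesis and cell type lists are outside that rule. The members and lists were chosen with earlier results of these data known. The alternatives with an SD array as deposited, channel-swap differences, the single-day and leave-one-out fits over 18 arrays, the random block and the averaged pairs were chosen after seeing the data. Chromosomal positions of probes were not used here.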

Additional observations from a re-analysis of the deposited data

Results flagged for a closer look

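The SD arrays, which enter none of the comparisons over 13 arrays, held globin ratios below 0 that were further from 0 than any day 0 ratio of the same probe. For Hba-ps3 these were -4.25 on day 2, -2.78 on day 5 and -4.20 on day 6, where the furthest of its day 0 ratios was 1.73. For Hbb-b2 they were -0.86 on day 5 and -3.11 on day 6, with 0.45 as the furthest on day 0. For Hbb-bh1 they were -2.13 on day 2 and -2.35 on day 6, with a size of 0.996 as the furthest on day 0. The Hba-ps3 values of these 3 days and the Hbb-b2 values of days 5 and 6 had the sign opposite to the B array of their day. Hbb-bh1 on day 2 had the same sign on both, and on day 6 it had no B value. Ratios above 0 were not flagged, though some also lay further out than on day 0. Hbb-b2 was at 1.05 on the SD array of day 2. The better measured Hba-x probe was at 0.77 on that of day 3, with -0.67 as its furthest on day 0. Both had the same sign on the B array of their day.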

How the results depend on the processing

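Hba-ps3 and Hbb-b2 stayed higher late under all 23 alternatives, between 2.23 and 5.02 log2 and between 1.31 and 2.86. Some of these returned the same 4.43 and 2.34 as the main fit. They were the replicate block, the fit without the filter on missing values, and leaving out an array of day 1, 2 or 3. The arrays of those days do not enter the late difference. Hba-ps3 passed 0.05 with an orientation term over 18 arrays (4.30, adjusted p = 1.92e-05 in limma), against 0 in place of day 0 (5.02, adjusted p = 9.10e-06) and with the series letter as a replicate block (4.43, adjusted p = 0.00342). Leaving out 1 of the 13 arrays gave 4.20 to 4.67. Hbb-b2 passed with the orientation term (2.28) and against 0 (2.36, adjusted p = 0.00231), and ranged from 1.81 to 2.86 with 1 array left out. The number of probes past 0.05 late was 0, and 1 with the replicate block, 16 with the orientation term, 309 against 0 and 0 to 1 with an array left out. For the slope it was 0, and 1 with the block, 31 with the orientation term and 1 without centring. The letters A and B do not count as pairs, since same-letter deviations correlated at -0.01 between days 5 and 6, though at 0.15 to 0.42 in the other 14 of 15 pairs of days. Hba-x late turned to -0.12 with the orientation term, to -0.013 with quantile normalization, to -0.50 with the B and SD arrays of a day averaged to 1 value, and ranged from -0.29 to 0.81 with 1 array left out. Its slope turned to -0.0070 with the orientation term. Within that term Hba-x was 0.34 without day 6 of series A, 0.09 without day 4 of series B and 0.17 without the SD array of day 5, in a range from -0.58 to 0.34, and the probes past 0.05 ranged from 5 (without the SD array of day 6) to 24. Without day 4 or day 5 of series A 7 passed. With each B and SD pair averaged to 1 value under that term Hbb-b2 was at 2.27, no longer past 0.05, and 1 probe passed. Averaging SD arrays in as deposited turned Hba-ps3 early to -1.13. The median of the regulator list was 0.46 over its tested probes. The cause of these shifts was not tested. The median late difference of all tested probes was 0.21 centred and 0.46 not centred, with 62.7 and 74.5 percent above 0. Without the day 1 array no early difference could be formed, nor one for Hba-ps3 without day 2 of series B.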
